A study of Homo sapiens with 4 samples.

Results

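Lipoxygenases and the enzymes around them turn arachidonic acid and related fatty acids into lipid mediators. The genes described here are 7 of the 20515 gene rows analysed in T47D cells, chosen by name with earlier results of these data known. They are the lipoxygenase genes ALOX5, ALOX15 and ALOXE3, the leukotriene A4 hydrolase gene LTA4H and the prostaglandin E synthase genes PTGES, PTGES2 and PTGES3. T47D is an established human breast carcinoma line with luminal features. Poly(A) RNA was sequenced from 2 control samples, whose treatment label is None, and from 2 samples that received baicalein. Baicalein is a flavonoid from plants and is known to inhibit lipoxygenases. The sources used here give no dose, duration or vehicle. The labels do not say whether replicates were separate cultures, and p-values therefore reflect only the variation among these libraries, which may be technical.

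In this pathway a phospholipase frees arachidonic acid from membrane lipids. Lipoxygenases add oxygen to it to give hydroperoxides, which lead to leukotrienes and hydroxy fatty acids, whereas cyclooxygenases make prostaglandin H2, which terminal synthases turn into prostaglandins such as prostaglandin E2. In breast carcinoma cells prostaglandin E2 is known as a growth-related mediator that acts through the EP receptors, and ALOX5 and its leukotriene products are best known from white blood cells.

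Libraries held from 38597207 to 56732569 counts, the lowest and the highest being the 2 baicalein libraries. Levels are given as CPM, counts scaled to a common library size with trimmed mean (TMM) factors, where 1 CPM stood for 37.2 to 54.7 counts. All 10 luminal breast epithelial markers on the list used (keratins, EPCAM, CDH1, GATA3, ESR1, PGR, FOXA1 and SPDEF) were present, with a summed level of 13063 to 14374 CPM in controls and 7401 to 7509 CPM with baicalein. KRT8, KRT18 and KRT19 held most of that sum; 8 of the 10 were called lower, CDH1 rose from 555 ± 14.0 to 1068 ± 15.2 CPM and EPCAM did not pass (adjusted p = 0.0584). Of 14 leukocyte markers 4 were analysed here, with a summed level of 4.72 to 5.08 CPM in controls and 1.15 to 1.41 CPM with baicalein, and PTPRC, which marks all white blood cells, had 0 counts in both controls. Of 12 fibroblast and endothelial markers 3 were analysed here, with a summed level of 90.4 to 100.7 CPM in controls and 140.9 to 151.0 CPM with baicalein, nearly all of it COL1A1; COL1A1 and LUM were called higher. In bulk samples, fewer cells of a type and less RNA per cell cannot be told apart.

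Relative to controls, scaled levels with baicalein were much lower for PTGES, lower for ALOX15 and slightly higher for ALOXE3 and LTA4H. CPM is a share of the counted RNA, so RNA per cell was not measured. PTGES fell 7.51-fold and ALOX15 2.32-fold, ALOXE3 rose 1.37-fold and LTA4H 1.23-fold. ALOX5 and PTGES2 were also called lower, but both calls depended on single libraries, and PTGES3 did not pass the test. All 7 genes passed the filter on low counts. By the quasi-likelihood test of edgeR, at a Benjamini-Hochberg adjusted p under 0.05 over all 18369 tested genes, 2 of the 7 were higher and 4 lower. Most of the transcriptome differed between the groups: 37.4% of all tested genes were called higher with baicalein and 37.6% lower, 75% in all. The share of these 7 genes that was called is therefore near the background. Both baicalein libraries lay above both controls in 2 of the 7 genes (43.4% of all tested genes) and below both in 4 (43.5%), and 86.9% of all tested genes had groups that did not overlap. The median log2 fold change was -0.11 over the 7 genes and 0.0017 over all tested genes.

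**Figure D1:**
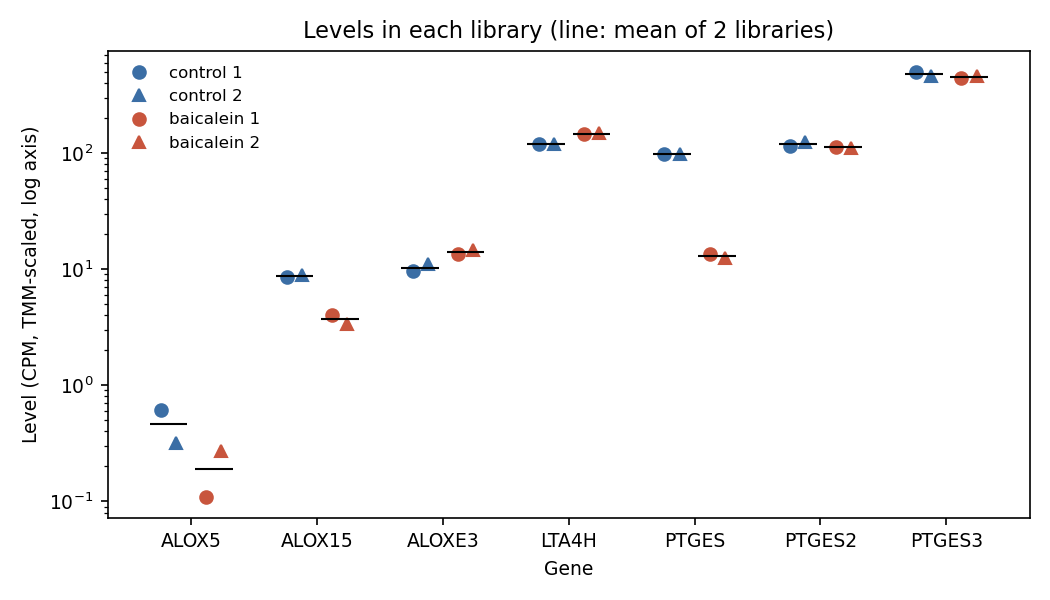
Level of each gene in each of the 4 libraries, in CPM on a log axis, with circles for replicate 1, triangles for replicate 2 and a line at each group's mean. PTGES shows the widest gap between groups (98.4 and 97.8 CPM in controls, 13.4 and 12.6 CPM with baicalein), and the 2 groups overlap only in PTGES3.

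Per length of annotated exon, the 3 lipoxygenase genes had the lowest levels of the 7. ALOX15 (ENSG00000161905, chromosome 17, positions 4630902 to 4642294 of GRCh38, minus strand), which codes for a lipoxygenase that oxygenates arachidonic and linoleic acid and is a known target of baicalein as an enzyme inhibitor, had 8.53 and 8.87 CPM in control 1 and 2 and 4.02 and 3.38 CPM in baicalein 1 and 2. Both treated libraries were below both controls, and each control exceeded the higher treated value by far more than replicates differed. These levels rest on 403 and 417 counts for the controls, against 220 and 126 for baicalein. ALOX15 fell by 1.22 on the log2 scale (SE 0.11, edgeR adjusted p = 8.33e-10), and the mean went from 8.70 ± 0.239 to 3.70 ± 0.452 CPM (SD, n = 2). It also passed edgeR's test against a 1.5-fold change (adjusted p = 3.59e-06), which called 19.5% of all tested genes lower. Of the 75-base stretches in its annotated transcripts, 5.81% also occur in the pseudogene ALOX15P1, whose row was not analysed here.

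ALOXE3 (ENSG00000179148, chromosome 17, positions 8095900 to 8119047, minus strand) codes for the epidermal lipoxygenase eLOX3, known as a hydroperoxide isomerase that works after ALOX12B in building the skin barrier. It had 9.63 and 11.0 CPM in the controls and 13.6 and 14.7 CPM in baicalein 1 and 2, so both treated libraries were above both controls, by more than the replicates of either group differed. ALOXE3 rose by a log2 fold change of 0.45 (SE 0.09, 95% interval 0.27 to 0.63, edgeR adjusted p = 7.47e-05), and 71.7% of all tested genes had a lower fold change. Its skin partner ALOX12B stood at 0.583 ± 0.0731 CPM in controls and 0.516 ± 0.123 CPM with baicalein and did not pass (log2 fold change -0.14, adjusted p = 0.695, and 0.06 without baicalein 2). Of 10 keratinocyte markers 3 were analysed here, with a summed level of 67.4 to 72.1 CPM in controls and 70.5 to 74.8 CPM with baicalein. Within that sum KRT10 rose from 51.6 ± 0.304 to 68.8 ± 3.10 CPM and IVL fell from 18.1 ± 2.94 to 3.75 ± 0.0842 CPM, while SBSN had at most 8 counts in a library. The part of these markers in the ALOXE3 result was not tested.

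ALOX15 and ALOXE3 thus moved in opposite directions. In controls, ALOX15 and ALOXE3 were level with each other per length of annotated exon, 2.56 ± 0.0701 against 2.74 ± 0.256 CPM per kb (SD, n = 2), and their libraries overlapped. With baicalein the levels were 1.09 ± 0.133 and 3.76 ± 0.221 CPM per kb. Per library, ALOXE3 stood at 1.02 and 1.12 times ALOX15 in the controls and at 3.05 and 3.94 times in baicalein 1 and 2. The 95% intervals of their fold changes, -1.44 to -0.99 and 0.27 to 0.63, did not overlap.

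ALOX5 (ENSG00000012779, chromosome 10, positions 45374176 to 45446119, plus strand), the enzyme gene that starts leukotriene synthesis, was close to the limit of detection. Control 1 held 29 counts and control 2 held 15, baicalein 1 held 6 and baicalein 2 held 10, or 0.614, 0.319, 0.1097 and 0.268 CPM, beside a floor of 3 counts at 0.0549 to 0.0805 CPM. Both treated libraries lay below both controls, but control 2 and baicalein 2 were closer to each other than either was to its own replicate. The log2 fold change was -1.39 with a wide error (SE 0.47, 95% interval -2.38 to -0.41, edgeR adjusted p = 0.0114). ALOX5 was no longer called in DESeq2 (adjusted p = 0.125), nor once control 1 (-0.85, adjusted p = 0.230) or baicalein 1 (-0.79, adjusted p = 0.232) was left out. The summed level of the 4 leukocyte markers was also lower with baicalein, as given above. S100A9, which held most of it, had 219 and 200 counts in controls and 55 and 24 with baicalein. S100A8 had 7 and 5 counts against 2 and 0, and CD68 had 14 and 17 against 15 and 13. PTPRC was at 0 in the controls, where ALOX5 was highest, and had 5 and 6 counts with baicalein. The part of these markers in the ALOX5 result was not tested.

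LTA4H (ENSG00000111144, chromosome 12, positions 96000828 to 96043520, minus strand) codes for the hydrolase that makes leukotriene B4 and also cleaves peptides. It had 119.1 and 119.2 CPM in the controls and 144.7 and 147.6 CPM in baicalein 1 and 2. The controls were nearly equal and both treated libraries lay above them. LTA4H rose by a log2 fold change of 0.29 (SE 0.04, 95% interval 0.21 to 0.38, edgeR adjusted p = 1.60e-06), and 64.9% of all tested genes had a lower fold change. Exons of LTA4H overlap those of AC007298.1 and AC007298.2 on the opposite strand, over 121 and 582 bases. The sources used here do not say if reads were counted by strand. The row of AC007298.2 held 42 and 12 counts in controls and 73 and 30 with baicalein, against 5626 and 5605 and 7914 and 5497 for LTA4H. The row of AC007298.1 was not analysed here.

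**Figure D2:**
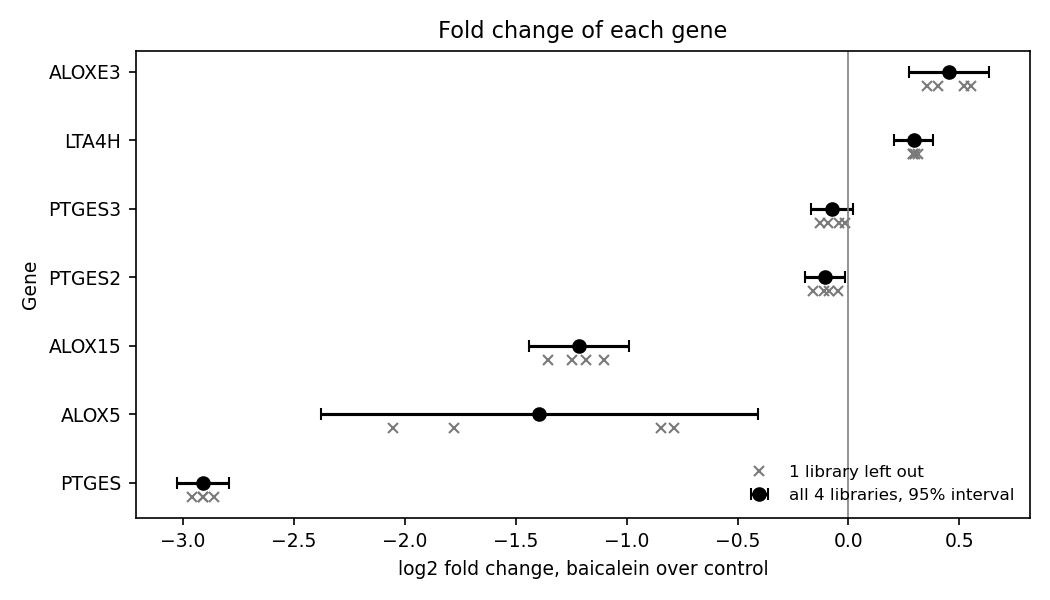
Log2 fold change of each gene (baicalein over control, x axis) with its 95% interval from all 4 libraries (black) and the values with 1 library left out (grey crosses). PTGES lies near -2.91 in every case, whereas the crosses of ALOX5 spread from -2.05 to -0.79.

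The prostaglandin E synthases differed most among themselves. PTGES (ENSG00000148344, chromosome 9, positions 129738331 to 129753047, minus strand) codes for the inducible microsomal enzyme that is known to work with cyclooxygenase-2. PTGES2 (ENSG00000148334, chromosome 9, positions 128120693 to 128128462, minus strand) codes for a second, more constant membrane-associated form. PTGES3 (ENSG00000110958, chromosome 12, positions 56663341 to 56688408, minus strand) codes for the cytosolic form, better known as p23, a co-chaperone of HSP90 that helps keep steroid receptors in a hormone-binding state. The bases before the RefSeq start site of these 3 genes are shown because the enzymes share a reaction while their RNAs moved by different amounts. Each window is 250 bases of GRCh38.p14 on the minus strand, written 5′ to 3′, at chr9:129753043-129753292 for PTGES, chr9:128128441-128128690 for PTGES2 and chr12:56688285-56688534 for PTGES3. Capitals mark GC boxes, GGGCGG on either strand:
PTGES: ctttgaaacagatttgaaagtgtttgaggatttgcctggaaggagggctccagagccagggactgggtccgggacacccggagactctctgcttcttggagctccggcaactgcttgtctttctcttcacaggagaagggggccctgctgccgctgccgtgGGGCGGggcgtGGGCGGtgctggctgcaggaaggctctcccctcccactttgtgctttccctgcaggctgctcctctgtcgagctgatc
PTGES2: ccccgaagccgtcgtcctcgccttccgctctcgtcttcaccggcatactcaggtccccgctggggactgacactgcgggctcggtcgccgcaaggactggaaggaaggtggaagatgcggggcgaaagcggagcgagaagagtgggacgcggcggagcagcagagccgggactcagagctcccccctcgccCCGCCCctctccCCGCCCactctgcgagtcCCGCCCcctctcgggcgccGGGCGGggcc
PTGES3: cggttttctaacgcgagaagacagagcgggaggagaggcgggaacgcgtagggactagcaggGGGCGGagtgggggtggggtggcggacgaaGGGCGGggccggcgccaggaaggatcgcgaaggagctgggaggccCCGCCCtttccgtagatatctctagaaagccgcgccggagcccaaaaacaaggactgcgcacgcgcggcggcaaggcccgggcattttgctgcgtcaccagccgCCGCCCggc

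The PTGES window holds 2 GC boxes, PTGES2 and PTGES3 hold 4 each, and 42.5% of all 34943 RefSeq windows of that length hold at least 1. The PTGES window also holds the EGR1 letters GCGTGGGCG, 82 bases before the start, overlapping the second GC box, a string found in 0.721% of all windows on either strand. That match contains GCGTG, the core letters bound by the aryl hydrocarbon receptor, which are also in the PTGES3 window and in 32.2% of all windows. The antioxidant response letters TGACNNNGC occur in the windows of PTGES2 and PTGES3, not in that of PTGES, and in 10.9% of all windows. Neither GAANNTTC (heat shock element units), GGTCA (part of the estrogen response element), CCAAT nor TATAAA is in any of these 3 windows on either strand, against 5.80%, 32.6%, 32.0% and 10.8% of all windows. The G and C content was 61.2% for PTGES, 72.4% for PTGES2 and 68.8% for PTGES3. These matches describe the sequence only. Of the 7 genes, 5 had a window in the table, and PTGES2 had 3, of which the one nearest the annotated 5′ end of the gene was used.

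PTGES had 98.4 and 97.8 CPM in control 1 and 2 and 13.4 and 12.6 CPM in baicalein 1 and 2. The replicates of each group nearly coincided and the groups were far apart. PTGES fell by 2.91 on the log2 scale (SE 0.06, 95% interval -3.03 to -2.79, edgeR adjusted p = 1.38e-21), from a mean of 98.1 ± 0.443 to 13.0 ± 0.618 CPM (SD, n = 2). Only 277 of the 18369 tested genes, or 1.51%, had a lower fold change. Over the alternative settings the PTGES value ran from -3.01 to -2.86, and its call held in each.

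PTGES2 had 115.9 and 124.4 CPM in the controls and 112.4 and 111.0 CPM with baicalein. The treated libraries were below both controls, by less than the controls differed from each other. The log2 fold change was -0.11 (SE 0.04, 95% interval -0.20 to -0.01, edgeR adjusted p = 0.0364). PTGES2 was not called in DESeq2 (adjusted p = 0.0896), with a filter of 50 counts (0.0549), or once 1 of 3 libraries was left out. The value shrank to -0.05 without control 2 (adjusted p = 0.2203) and was -0.11 without baicalein 1 (0.206) and -0.09 without baicalein 2 (0.311). PTGES2 and PTGES, both on the long arm of chromosome 9, therefore had fold changes whose intervals lay far apart.

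PTGES3 had the highest level of the 7 genes per length of exon. It had 498.4 and 459.1 CPM in the controls and 446.4 and 463.4 CPM with baicalein, so the groups overlapped. The log2 fold change was -0.07 (SE 0.05, 95% interval -0.17 to 0.02, edgeR adjusted p = 0.143), with 0 inside the interval. Without control 1 the value was -0.02 (adjusted p = 0.617). Without control 2 it was -0.13 and was called (adjusted p = 3.92e-05), as it was with upper quartile scaling (-0.11, adjusted p = 0.0372) and with library totals alone (-0.18, adjusted p = 0.00171). Library totals alone moved the median of all tested genes by -0.10. Of its 75-base stretches 3.64% also occur in the pseudogenes PTGES3P1 and PTGES3P3. Of 5 annotated PTGES3 pseudogenes 1 was analysed here, with at most 31 counts in a library.

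Per length of annotated exon, the order of levels in controls was PTGES3 (141 ± 8.17 CPM per kb), PTGES (51.8 ± 0.234), PTGES2 (39.5 ± 1.98), LTA4H (16.2 ± 0.0103), ALOXE3, ALOX15 and ALOX5 (0.125 ± 0.0559). With baicalein PTGES dropped to the fourth place, 6.86 ± 0.326 CPM per kb, below PTGES2 (36.7 ± 0.318) and LTA4H (19.9 ± 0.277). The order of the other genes did not change, and in the controls the neighbours ALOXE3 and ALOX15 did not differ beyond their spread. With the longest annotated transcript as length, PTGES and PTGES2 stood at 52.5 and 51.6 CPM per kb in controls, and ALOX15 at 3.12 against 3.07 for ALOXE3, so the order of ALOX15 and ALOXE3 rests on the length used and the gap between PTGES and PTGES2 narrows.

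As a share of the summed per-length level of the 3 prostaglandin E synthase genes, PTGES made up 21.9% in control 1 and 22.7% in control 2, against 4.04% in baicalein 1 and 3.69% in baicalein 2. PTGES3 went from 61.9% and 59.3% to 74.9% and 76.0%, and PTGES2 from 16.1% and 18.0% to 21.1% and 20.4%. A rising share here does not mean a rising level: neither PTGES2 nor PTGES3 was higher with baicalein. Per length, PTGES stood at 1.36 and 1.26 times PTGES2 in the controls and at 0.192 and 0.181 times in the treated libraries.

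**Figure D3:**
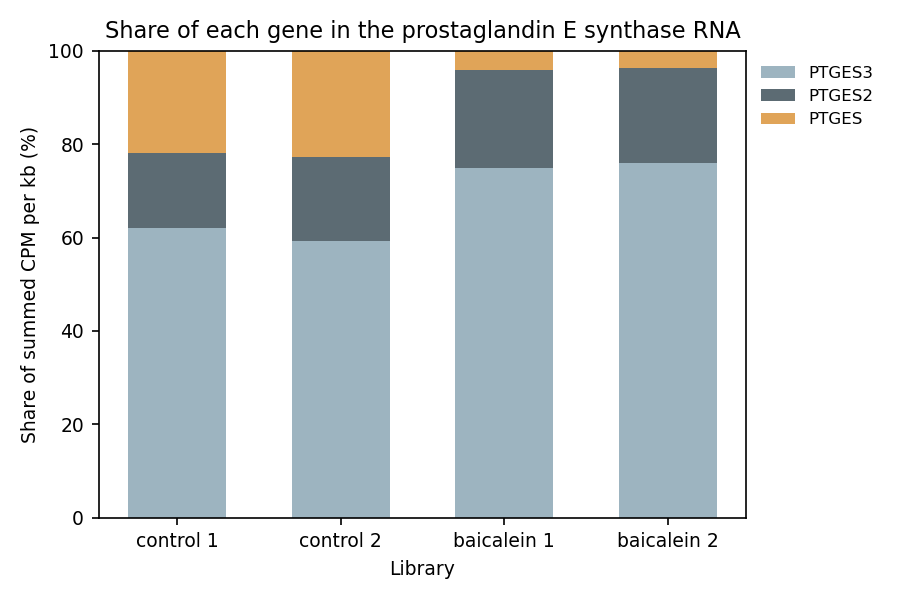
Share of PTGES, PTGES2 and PTGES3 in their summed level per kb of exon (y axis, percent), 1 bar for each library. The PTGES share is 21.9% and 22.7% in the controls and 4.04% and 3.69% with baicalein.

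The genes around these enzymes were counted by 8 lists, and are called pathway genes below. The list of HSP90 and its co-chaperones was included for PTGES3 and is not a step of this pathway. Of 131 listed genes 105 were analysed and 100 tested, and in edgeR's test 30 were higher and 49 lower, beside 37.4% and 37.6% of all tested genes. Their median log2 fold change was -0.15. The HSP90 list held 26 of the tested genes, 6 of them higher and 16 lower. In edgeR's test against a 1.5-fold change 16.8% of all tested genes were higher and 19.5% lower. Differences between the lists were not tested.

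Among cyclooxygenases and other prostanoid synthases 6 of 9 tested genes were lower and 2 higher (median log2 fold change -0.93). Of all tested genes 37.6% were lower and 37.4% higher. PRXL2B, which codes for a prostamide and prostaglandin F synthase, fell from 36.6 ± 1.73 to 8.54 ± 0.0761 CPM; its exons overlap those of MMEL1. The glutathione transferase genes GSTM3 and GSTM2, whose products can isomerise prostaglandin H2, fell by 1.36 and 0.93 on the log2 scale. AKR1C3, which codes for a prostaglandin F synthase of the aldo-keto reductase family, rose from 0.149 ± 0.0305 to 6.57 ± 0.349 CPM. GSTM2 and AKR1C3 belong to families of near-identical genes, so the split of reads among copies is uncertain. The cyclooxygenase-1 gene PTGS1 had 5 and 19 counts in controls and 13 and 5 with baicalein and did not pass (log2 fold change -0.39, adjusted p = 0.537, and 0.86 without control 2). PTGS2, the cyclooxygenase-2 gene, was not analysed here.

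Among other lipoxygenases and leukotriene genes 5 of 8 tested genes were lower and 1 higher (median -0.51). This median was -0.27 without control 1, -0.26 without control 2, -0.20 without baicalein 2, -0.23 with no filter and -1.05 with a filter of 50 counts. MGST1, MGST2 and MGST3 code for microsomal glutathione transferases of the same membrane protein family as PTGES. MGST1 rose from 137 ± 6.57 to 273 ± 5.55 CPM, whereas MGST2 and MGST3 fell by 1.32 and 0.79 on the log2 scale. GGT1, which codes for a glutamyltransferase that trims leukotriene C4, fell from 17.9 ± 1.62 to 6.35 ± 0.135 CPM; its exons overlap those of SNRPD3. LTC4S, the leukotriene C4 synthase gene and another relative of PTGES, had 17 and 14 counts in controls and 25 and 13 with baicalein and did not pass (adjusted p = 0.451). ALOX12 had 5 and 8 counts against 18 and 7, too few to be tested, and ALOX15B and ALOX5AP were not analysed here.

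Upstream, genes of arachidonate release were divided, with 5 higher and 5 lower of 15 (median -0.01, and 0.01 to 0.03 with a filter of 50 counts, without control 2 or without baicalein 2). With library totals alone 4 were higher and 8 lower, and in the test against a 1.5-fold change 4 were higher and 2 lower. PLA2G4A, which codes for the cytosolic phospholipase A2 best known for freeing arachidonic acid, fell from 4.32 ± 0.181 to 0.887 ± 0.0389 CPM, and its relative PLA2G4F from 23.7 ± 1.59 to 6.29 ± 0.619 CPM. PLA2G4C rose from 1.12 ± 0.206 to 5.09 ± 0.512 CPM and the secreted phospholipase gene PLA2G12A from 42.6 ± 1.23 to 112 ± 2.89 CPM. Genes that activate arachidonate and return it to phospholipids were 5 higher and 5 lower of 14 (median 0.08, and -0.02 with library totals alone and -0.10 without control 2). The acyl-CoA synthetase genes ACSL1, ACSL3 and ACSL4 rose by log2 fold changes of 2.32, 1.60 and 2.57. ACSL4, whose enzyme prefers arachidonic acid, went from 4.12 ± 0.587 to 24.5 ± 0.264 CPM. MBOAT7, which codes for an acyltransferase that places arachidonate into phosphatidylinositol, fell from 87.2 ± 4.46 to 31.9 ± 0.108 CPM.

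Cytochrome P450 and epoxide hydrolase genes were 3 higher and 5 lower of 9 (median -0.42, and -0.25 with no filter). CYP4F11, which codes for a fatty acid hydroxylase, had 0 counts in both controls and 121 and 89 with baicalein, at least 36.1-fold higher against a floor of 3 counts per control library. CYP4F22 fell by 2.27 on the log2 scale. EPHX1, the microsomal epoxide hydrolase gene, rose from 69.0 ± 4.83 to 122 ± 3.93 CPM, and EPHX2, whose soluble enzyme hydrolyses epoxides of arachidonate, fell from 19.5 ± 1.05 to 10.9 ± 0.228 CPM. Genes of breakdown and transport were 3 higher and 5 lower of 9 (median -0.64). The reductase genes PTGR1, PTGR2 and CBR3 fell by 1.18, 0.64 and 1.58 on the log2 scale, and the leukotriene C4 exporter gene ABCC1 rose by 0.81. CBR3 overlaps CBR3-AS1 on the opposite strand. HPGD, which codes for the main enzyme that inactivates prostaglandin E2, had 8 and 9 counts in controls and 3 and 0 with baicalein and was not tested.

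Receptor genes were 5 higher and 2 lower of 10 tested (median 0.30), and 0 higher and 1 lower in the test against a 1.5-fold change. PTGER3, a prostaglandin E2 receptor gene whose product lowers cyclic AMP, fell from 164 ± 6.002 to 116 ± 4.63 CPM, and PTGER4, whose product raises it, rose from 22.6 ± 0.901 to 34.6 ± 1.40 CPM. PTGER2 had 12 and 11 counts against 18 and 11 and did not pass (adjusted p = 0.441). The leukotriene B4 receptor genes LTB4R and LTB4R2, whose exons overlap on the same strand, rose by log2 fold changes of 0.30 and 0.31. The thromboxane receptor gene TBXA2R fell from 1.92 ± 0.261 to 0.372 ± 0.146 CPM.

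PTGES3 was also set beside HSP90 and its co-chaperones, of which 16 of 26 tested genes were lower and 6 higher (median -0.21), and 3 lower and 3 higher in the test against a 1.5-fold change. HSP90AA1 fell from 3360.2 ± 39.6 to 1347 ± 3.69 CPM. HSP90AB1 stood at 1514 ± 61.9 and 1610.2 ± 30.7 CPM and did not pass (log2 fold change 0.09, adjusted p = 0.0520), though it was called higher in 5 alternatives, DESeq2 and limma-voom among them, and its value was -0.01 with library totals alone. The immunophilin genes FKBP4 and FKBP5, whose products join p23 in steroid receptor complexes, fell by 1.66 and 0.99 on the log2 scale. FNIP1, which codes for an HSP90 co-chaperone tied to folliculin, rose by 2.35.

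**Figure D4:**
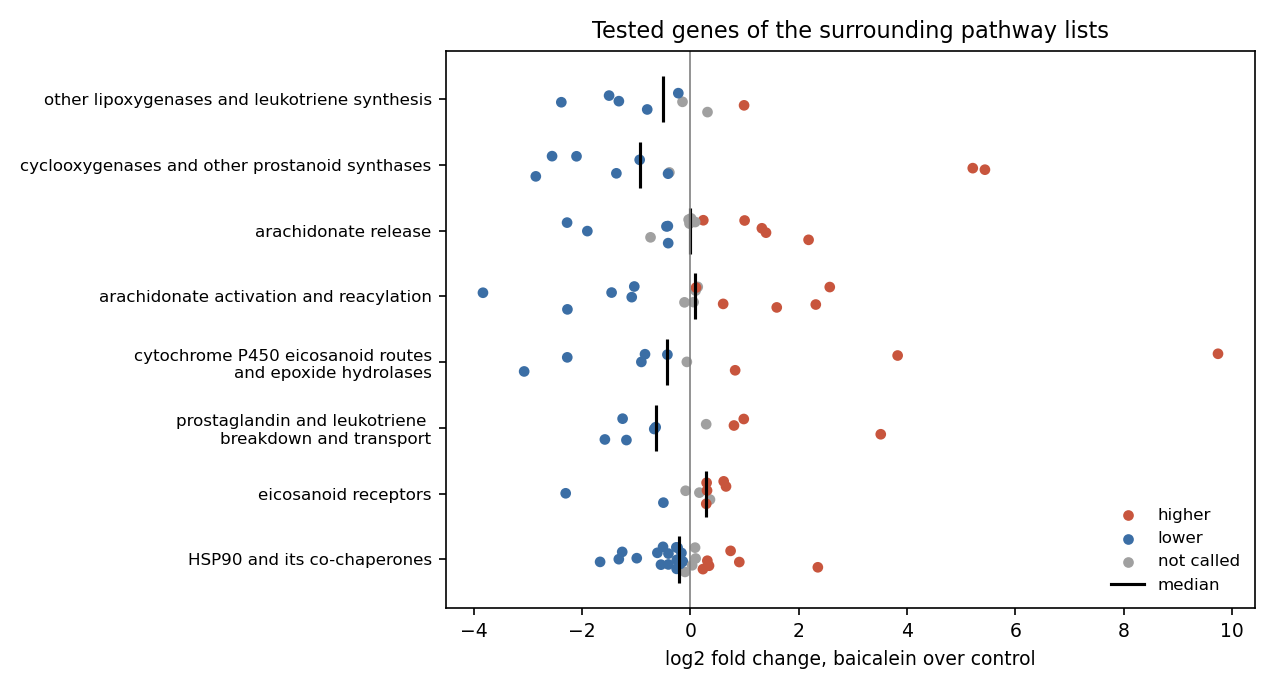
Log2 fold change (x axis) of each tested gene in the 8 lists (rows), that of HSP90 included. Points are coloured by their call in edgeR's test, with the median of each list as a black line. Cyclooxygenases and other prostanoid synthases have a median of -0.93 and receptors of 0.30. The point at the far right is CYP4F11, whose ratio to controls has no upper bound because its control counts were 0. Its fitted value depends on the method, 9.74 in edgeR and 7.76 in limma-voom.

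The genes nearest in pattern to each of the 7 were found by the distance between centred log2 CPM values over the 4 libraries, among 13129 tested genes with a mean log2 CPM of at least 1. For PTGES these were KLHL13 and RND2 (log2 fold changes -2.90 and -2.98, distances 0.0408 and 0.0806). SCAMP5 and HES6 were nearest to ALOX15 (-1.23 and -1.22), ZNF500 and PCDHGB2 to ALOXE3 (0.42 and 0.49), and EXOC2 and SNX27 to LTA4H (0.29 and 0.30). ERI3 and HNRNPD were nearest to PTGES2, POMP and SNRPB2 to PTGES3, and IFIT1 and NAIPP2 to ALOX5, the last pair at distances of 0.343 and 0.509. With 4 libraries such likeness says little more than a similar fold change.

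**Figure D5:**
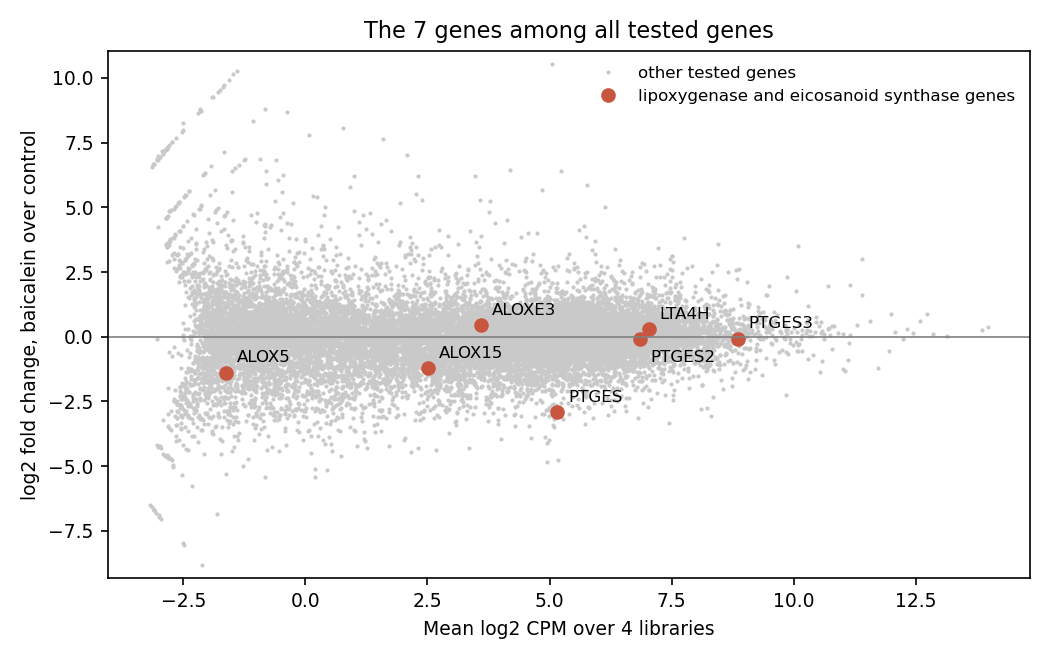
Log2 fold change (y axis) against mean log2 CPM over the 4 libraries (x axis) for all 18369 tested genes in grey and the 7 genes in red. PTGES (-2.91) lies at the lower edge of the cloud at its level, and the other 6 lie within it.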

How the data were processed

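Unscaled whole-number counts for each gene, as the authors deposited them for the 4 libraries, were the only values used. The table has 20515 rows, its smallest row total is 10 and it holds 0 columns of other samples. The submitters' processing notes list DESeq2 1.34, RSEM 1.3.3, cutadapt 2.3, STAR 2.7.8a, FastQC 0.11.8 and the build GRCh38, without roles. The sources used here give neither annotation release nor use of strand. Whether the counts are rounded RSEM estimates is not stated.

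Columns were matched by sample description and groups taken from titles. Identifiers were matched to symbols by a names table (20470 rows), and positions and exon lengths come from GENCODE 29 on GRCh38 (19849 rows), promoters from RefSeq GRCh38.p14.

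The test was that of edgeR 4.0.16 under R 4.3.3 (robust quasi-likelihood, TMM factors 1.042, 1.031, 0.964 and 0.965) over all 4 libraries without covariates. filterByExpr (minimum count 10, minimum total 15) kept 18369 genes. Standard errors are the size of the log2 fold change over the square root of F. Alternatives were DESeq2 1.42.0, limma-voom (limma 3.58.1), other scalings and filters, edgeR's test against a 1.5-fold change, a replicate block, a threshold of 0.01 and leaving out each library. The fit was tested on simulated data with known changes in far fewer genes than were called here. That test therefore did not check the scaling where most genes move. Replicates differed by more than sampling noise (mean chi-square per gene 9.61 in controls and 2.43 with baicalein, medians 1.38 and 0.70). These values do not show whether replicates came from the same culture or RNA. The processing notes name no step that marks PCR copies, which may be counted more than once. Counting floors therefore cover counting error only.

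Named were the 7 genes, up to 4 genes of each list by smallest adjusted p, 14 fixed partners and the 2 genes nearest in pattern to each. The cell type markers and AC007298.2 were named after their values were seen. The genes and lists were chosen with earlier results of these data known. 1 leukocyte marker is not reported here and is in no sum.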

Additional observations from a re-analysis of the deposited data

How the results depend on the processing

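The calls of PTGES, ALOX15, ALOXE3 and LTA4H held under every alternative scaling, filter and tool, with the replicate block and without each library. In the test against a 1.5-fold change 0 of the 7 genes were higher and 2 lower (PTGES and ALOX15). Of the 100 tested pathway genes 18 were higher and 27 lower, beside 16.8% and 19.5% of all tested genes. The count of lower genes among the 7 was also 2 with a filter of 50 counts in 2 libraries, in DESeq2 and at a threshold of 0.01, and it ran from 2 to 4 when 1 library was left out. It fell to 2 without baicalein 1. The number of higher genes was 2 whichever library was left out. No direction of the 7 genes changed. Library totals alone called 28 pathway genes higher and 55 lower.

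The replicate numbers were used as a block in 1 fit, which called 2 of the 7 genes higher and 4 lower, and 29 and 49 pathway genes. Same-numbered libraries did not deviate together (correlation -0.0018 over 14584 genes). With 2 pairs this cannot show whether they shared a culture or a batch, which the labels do not give.

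The PTGES share of prostaglandin E synthase RNA was 19.7% in controls and 3.32% with baicalein with the longest annotated transcript as length, and 14.1% and 2.24% from counts without division by length. Depth limits ALOX5, ALOX12, HPGD, PTGS1, LTC4S and PTGER2, which had fewer than 30 counts in every library.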
